A study of Mus musculus with 9 samples.

Results

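The genes described here mark the cells that wrap or surround blood vessels and build the extracellular matrix of the brain. They are 41 mouse genes, listed by symbol and found in the count table through their Ensembl identifiers, out of 55421 genes in the table. They fall into 5 groups by role: 7 pericyte genes, 4 smooth muscle genes, 12 fibroblast genes, 9 interstitial collagen genes, and 9 genes of the basement membrane and its binding proteins. The low-count filter kept 20032 genes for testing, and 40 of the 41 were among them. The gene left out was Tagln, which encodes an actin-binding protein of smooth muscle.

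Mural cells are the pericytes of capillaries and the smooth muscle cells of arterioles and veins. Brain fibroblasts lie in the meninges, around larger vessels and in the stroma of the choroid plexus, where they secrete fibrillar collagens and small leucine-rich proteoglycans. The basement membrane is a sheet of laminin, collagen IV, nidogen and heparan sulphate proteoglycan around every vessel, to which endothelial cells, mural cells and astrocytes all contribute. Both mural cells and fibroblasts are known to lay down matrix after damage to the central nervous system.

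The study measured RNA by bulk sequencing in hippocampal cells sorted live for tdTomato, a red fluorescent protein that the mice express in neurons. Knockout mTBI mice carried a conditional knockout of Tmsb4x, the gene of thymosin beta 4, a small peptide that binds monomeric actin, and received 1 mild controlled cortical impact, a model of mild traumatic brain injury. Wild-type mTBI mice received the same impact, and wild-type sham mice had the operation without it. The series lists 3 mice per group, with 1 library under each replicate number. Per the labels the tdTomato reporter was common to all groups, while the Cre driver, the deleted part of Tmsb4x, the age and sex of the mice and the time after injury are not given in the sources used here. There is no knockout sham group among the 9 libraries, so the effect of genotype in uninjured mice was not tested. In bulk RNA, fewer cells of a type and less RNA per cell cannot be told apart.

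Totals were 36452443 to 39590872 counts per library, which leaves counting error small for all but the lowest of these genes. Tmsb4x itself had 70, 109 and 108 counts in the 3 knockout mTBI libraries and 35061, 21678 and 11921 counts in the 3 wild-type mTBI libraries. It had 105, 61 and 85 counts in the 3 libraries labelled wild-type sham, which is the knockout level and goes against their label. They are therefore called the libraries labelled sham, and every direction drawn against them carries that limit. In wild-type mTBI replicate 3, Xist was at 834 CPM (counts relative to the library total, scaled with TMM) and the Y-linked Ddx3y at 0.0498 CPM. No other library had more than 0.892 CPM of Xist or less than 49.6 CPM of Ddx3y. By these genes that library has a female pattern and the others a male one, so wild-type mTBI holds both. The part of sex in the spread of that group was not tested. The biological coefficient of variation was 18.7% among the knockout mTBI libraries, 19.6% among the wild-type mTBI libraries and 3.27% among the libraries labelled sham. The labels do not say whether those 3 libraries were prepared from separate mice. If they are not independent, the SE and p of each comparison with them are too small. All 9 libraries share 1 estimate of spread per gene. The low spread of these 3 therefore also enters the SE and p between knockout and wild-type mTBI, and that limit applies there too. Transcripts of the choroid plexus epithelium also set libraries apart. The summed level of 12 choroid plexus markers, none of them at 0 in any library, was 239, 5059 and 4139 CPM in the knockout mTBI libraries, 4449 to 6263 CPM in the wild-type mTBI libraries and 225 to 227 CPM in the libraries labelled sham. Knockout mTBI replicate 1 thus stood with the libraries labelled sham in these markers. The summed level of 8 neuronal markers was 9708 to 11831 CPM over all libraries.

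Although the sort was for neuronal fluorescence, transcripts of every role group were measured. Levels between genes are compared per length, as RPKM (CPM per kilobase of exon), with the mean and SD over the 9 libraries. The prostaglandin D2 synthase gene Ptgds, which is made by fibroblasts of the meninges and also by oligodendrocytes and choroid plexus, was the highest at 287 ± 73.2 RPKM. The matrix protein gene Sparc, whose product binds collagen and is also made by endothelial cells, came next at 89.3 ± 18.2 RPKM. The highest pericyte genes were Vtn, which encodes vitronectin, at 30.2 ± 3.20 RPKM, and Rgs5, a regulator of G-protein signalling, at 19.7 ± 1.73 RPKM. The fibroblast gene Mgp, which encodes the calcification inhibitor matrix Gla protein, had 15.8 ± 5.02 RPKM. Col6a1, a chain of the microfibril-forming collagen VI, had 15.7 ± 1.87 RPKM, and Col4a2, a chain of the basement membrane collagen IV, had 14.7 ± 1.71 RPKM. These 3 genes did not differ beyond their spread. Smooth muscle actin, Acta2, had 7.35 ± 1.81 RPKM. The lowest were Cnn1, the smooth muscle protein calponin, at 0.207 ± 0.0669 RPKM, and Tagln at 0.0822 ± 0.0483 RPKM. Tagln had 3 to 12 counts per library and 57 in all, and 67.9% of its exon bases also belong to other genes. Its RPKM is therefore not ranked against that of Cnn1, and no value of it is set between groups.

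No gene of the 40 passed the test in any comparison, which was edgeR's quasi-likelihood test at an adjusted p under 0.05 over all 20032 genes. Of all tested genes, 0.509% passed between wild-type mTBI and the libraries labelled sham, 0.015% between knockout and wild-type mTBI, and 0.0699% between knockout mTBI and the libraries labelled sham. At an unadjusted p under 0.05 the counts were 8 of 40 (2 higher and 6 lower) in the first comparison, where 13.2% of all genes reached that level (7.45% higher and 5.79% lower). They were 7 of 40, all higher, between knockout and wild-type mTBI, against 6.6% of all genes (3.25% higher and 3.35% lower). They were 3 of 40 (2 higher, 1 lower) between knockout mTBI and the libraries labelled sham, against 7.2% of all genes (4.58% higher and 2.62% lower). The count of the third comparison is near that background, and all 3 counts moved with single libraries. In fits of only the 6 libraries compared, the counts were 13 in the first comparison, 3 in the second and 7 in the third. The first count was 14 without wild-type mTBI replicate 3. The second was 11 without that library, 3 without replicate 1 or replicate 2 of the libraries labelled sham, and 4 without replicate 3 of them. The third was 11 without knockout mTBI replicate 1. With replicate 1 of wild-type mTBI left out it was 6, with replicate 3 of that group left out 5, and 1 without replicate 1 of the libraries labelled sham. Other tools called more in the first comparison: DESeq2 called 2 genes (Slc6a13 and Fbln1) and limma voom with sample quality weights called 4 (Slc6a13, Ptgds, Col18a1 and Nid2). Both called 0 in each of the other comparisons.

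The directions were uneven. Between wild-type mTBI and the libraries labelled sham, 31 of the 40 log2 fold changes were negative, with a median of -0.15, against a median of 0.018 over all tested genes. Between knockout and wild-type mTBI, 30 of 40 were positive, with a median of 0.13, against 0.0012 over all genes. These comparisons share the wild-type mTBI libraries with opposite sign, so the counts depend on each other and the second is not separate evidence for the first. Between knockout mTBI and the libraries labelled sham, 19 were positive and 21 negative, with a median of -0.05. Wild-type mTBI replicate 1 carried part of the first pattern and knockout mTBI replicate 1 part of the second. Without wild-type mTBI replicate 1, 23 were negative between wild-type mTBI and the libraries labelled sham (median -0.06), and 22 were positive between knockout and wild-type mTBI (median 0.02). Without knockout mTBI replicate 1, 22 were positive between knockout and wild-type mTBI (median 0.05), and 29 were negative between knockout mTBI and the libraries labelled sham (median -0.14). Without both, the comparison of knockout with wild-type mTBI had 18 positive and 22 negative values, with a median of -0.04. Without wild-type mTBI replicate 3, that comparison had 36 positive values and a median of 0.33. Values of single genes moved too. Leaving out 1 library turned the sign or moved the log2 fold change by over 1.5 times for 32 of 40 genes between wild-type mTBI and the libraries labelled sham, for 39 between knockout and wild-type mTBI, and for 33 between knockout mTBI and the libraries labelled sham. The sign itself turned for 12, 23 and 17 genes in these comparisons.

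**Figure D1:**
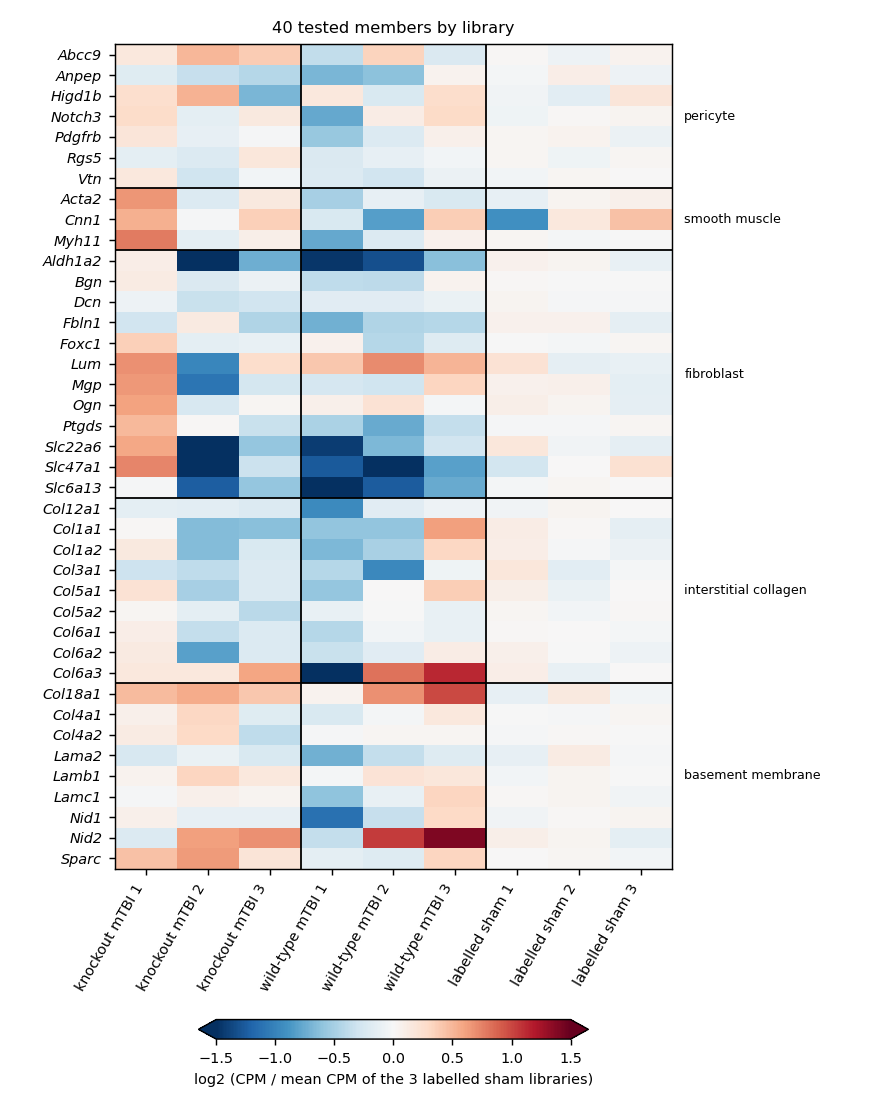
Level of each of the 40 tested genes (rows, by role group) in each of the 9 libraries (columns) as log2 of its CPM over the mean CPM of the 3 libraries labelled sham. Blue is lower and red is higher. The transporter genes Slc6a13, Slc22a6 and Slc47a1 and the enzyme gene Aldh1a2 are blue in the 3 wild-type mTBI libraries and in knockout mTBI replicates 2 and 3, whereas knockout mTBI replicate 1 is above 0 for 30 of the 40 genes.

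The fibroblast genes held the lowest log2 fold changes of the set between wild-type mTBI and the libraries labelled sham, whose label Tmsb4x goes against. Of the 12, 10 had negative log2 fold changes between wild-type mTBI and the libraries labelled sham, with a median of -0.37. In 7 of them (Slc6a13, Aldh1a2, Slc22a6, Slc47a1, Ptgds, Fbln1 and Dcn) all 3 wild-type mTBI libraries lay below all 3 libraries labelled sham. Over the whole set 11 of 40 genes lay wholly below and 1 (Lum) wholly above, against 11.5% and 12.4% of all tested genes. Outside the fibroblast genes, those lying wholly below were Vtn, Col6a1, Col12a1 and Lama2.

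Slc6a13 (ENSMUSG00000030108, GRCm38 chromosome 6, 121300227 to 121337733) encodes a transporter of GABA and taurine that marks fibroblasts of the leptomeninges. It had 12.6, 5.44 and 8.60 CPM in the knockout mTBI libraries, 4.08, 5.38 and 7.62 CPM in the wild-type mTBI libraries, and 12.5, 13.1 and 12.9 CPM in the libraries labelled sham. All wild-type mTBI libraries and knockout mTBI replicates 2 and 3 were below the libraries labelled sham, while knockout mTBI replicate 1 was among them. The log2 fold change between wild-type mTBI and the libraries labelled sham was -1.17 (SE 0.28, 95% interval -1.79 to -0.55), with an adjusted p of 0.10. This was the smallest adjusted p of the 40 genes in that comparison. Without knockout mTBI replicate 1, which is in neither group but in the shared estimate of spread, the adjusted p was 0.0350. Over all 21 alternatives its log2 fold change lay between -1.44 and -0.98. Between knockout and wild-type mTBI the value was 0.64 (SE 0.28, adjusted p 0.732), and the groups overlapped. That value was 0.30 without knockout mTBI replicate 1 and 0.91 without wild-type mTBI replicate 3.

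Aldh1a2, Slc22a6 and Slc47a1 are given by library because of the pattern of Slc6a13 and were chosen after their values were seen, as were Col6a3 and Nid2 below. Aldh1a2 (ENSMUSG00000013584, chromosome 9, 71215789 to 71296243) encodes a retinaldehyde dehydrogenase that makes retinoic acid in the meninges. It had 13.2, 3.96 and 7.37 CPM in the knockout mTBI libraries, 4.46, 4.92 and 7.96 CPM in the wild-type mTBI libraries, and 12.8, 12.7 and 11.4 CPM in the libraries labelled sham. The order of libraries was like that of Slc6a13, with knockout mTBI replicate 1 at the level of the libraries labelled sham. Between wild-type mTBI and the libraries labelled sham its log2 fold change was -1.08 (SE 0.35, adjusted p 0.229). Slc22a6 encodes an organic anion transporter and had 11.7, 1.23 and 5.24 CPM in the knockout mTBI libraries, 2.92, 4.89 and 6.40 CPM in the wild-type mTBI libraries, and 8.80, 7.55 and 7.12 CPM in the libraries labelled sham. Its highest library was 9.50 times its lowest, and both were knockout mTBI libraries. Slc47a1, which encodes an exporter of organic cations, had 6.30, 0.358 and 3.03 CPM in the knockout mTBI libraries, 1.59, 0.764 and 2.17 CPM in the wild-type mTBI libraries, and 3.14, 3.80 and 4.45 CPM in the libraries labelled sham. Its highest and lowest libraries, knockout mTBI replicates 1 and 2 with 241 and 14 counts, differed 17.6-fold, the widest ratio among the 40 tested genes. The adjusted p between wild-type mTBI and the libraries labelled sham was 0.592 for Slc22a6 (log2 fold change -0.72, SE 0.55, and -0.47 without wild-type mTBI replicate 1) and 0.426 for Slc47a1 (-1.33, SE 0.68).

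These 4 genes lay below all libraries labelled sham in the 5 libraries in which the choroid plexus markers were high. The gap was small for Slc47a1 in knockout mTBI replicate 3 (3.03 CPM, against 3.14 CPM in the lowest library labelled sham). It was also small for Slc22a6 in wild-type mTBI replicate 3 (6.40 against 7.12 CPM). In knockout mTBI replicate 1, where the choroid plexus sum was low, the 4 genes were near or above the level of the libraries labelled sham. The choroid plexus sums stand above with the libraries, and 12 of 12 markers were above the mean of the libraries labelled sham in each of those 5 libraries and 6 of 12 in knockout mTBI replicate 1. The part of choroid plexus tissue in the levels of these genes was not tested.

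Ptgds (ENSMUSG00000015090, chromosome 2, 25466709 to 25470046) was the only gene of the set whose knockout and wild-type mTBI groups did not overlap, where 4.86% of all genes lay wholly above and 4.86% wholly below. It had 717, 521 and 407 CPM in the knockout mTBI libraries, 369, 303 and 400 CPM in the wild-type mTBI libraries, and 506, 509 and 525 CPM in the libraries labelled sham. The lowest knockout library was only just above the highest wild-type one, and the libraries labelled sham lay within the knockout range. The log2 fold change between knockout and wild-type mTBI was 0.62 (SE 0.17, 95% interval 0.25 to 0.99, adjusted p 0.732), the smallest unadjusted p of the set in that comparison at 0.00381. Without knockout mTBI replicate 1 it was 0.38 (adjusted p 0.705). Between wild-type mTBI and the libraries labelled sham it was -0.52 (SE 0.17, adjusted p 0.228). The summed level of 6 oligodendrocyte markers, none at 0, was 6022 to 7234 CPM in knockout mTBI, 4862 to 8913 CPM in wild-type mTBI and 6254 to 6297 CPM in the libraries labelled sham. The part of oligodendrocytes or choroid plexus in the level of Ptgds was not tested.

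Fbln1 (ENSMUSG00000006369, chromosome 15, 85205949 to 85286535) encodes fibulin 1, a glycoprotein of elastic fibres and basement membranes. It had 15.7, 21 and 14.0 CPM in the knockout mTBI libraries, 11.6, 14.0 and 14.2 CPM in the wild-type mTBI libraries, and 20.0, 19.9 and 17.5 CPM in the libraries labelled sham. Wild-type mTBI lay wholly below the libraries labelled sham, and knockout mTBI replicate 2 was the highest of all 9. Its log2 fold change was -0.53 (SE 0.15, adjusted p 0.169) for wild-type mTBI against the libraries labelled sham. Dcn (ENSMUSG00000019929, chromosome 10, 97479609 to 97518143), the collagen-binding proteoglycan decorin, had 58.3, 48.8 and 50.3 CPM in the knockout mTBI libraries, 54.5, 54.5 and 57.3 CPM in the wild-type mTBI libraries, and 63.1, 60.8 and 60.6 CPM in the libraries labelled sham. Both injured groups lay below the libraries labelled sham and overlapped each other. For knockout mTBI the log2 fold change against the libraries labelled sham was -0.23 (SE 0.08, adjusted p 0.484).

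The other fibroblast genes were less even. Mgp had 30.2, 9.02 and 16.1 CPM in the knockout mTBI libraries, 16.2, 15.7 and 24.1 CPM in the wild-type mTBI libraries, and 20.1, 20.2 and 17.4 CPM in the libraries labelled sham. Its 3 groups overlapped, and both its highest and its lowest library were knockout mTBI. Lum, the proteoglycan lumican, was the only gene of the set with all wild-type mTBI libraries above the libraries labelled sham, with means of 5.73 CPM in wild-type mTBI and 3.93 CPM in the libraries labelled sham (log2 fold change 0.54, SE 0.32, adjusted p 0.480). Ogn, the proteoglycan osteoglycin, averaged 9.91 CPM in knockout mTBI, 9.37 CPM in wild-type mTBI and 8.78 CPM in the libraries labelled sham. Bgn, the proteoglycan biglycan, averaged 21.2 CPM in knockout mTBI, 18.8 CPM in wild-type mTBI and 22.0 CPM in the libraries labelled sham. Foxc1, a transcription factor needed for the meninges to form, averaged 5.60 CPM in knockout mTBI, 4.79 CPM in wild-type mTBI and 5.39 CPM in the libraries labelled sham. None of these 3 genes had groups that stood apart in any comparison.

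**Figure D2:**
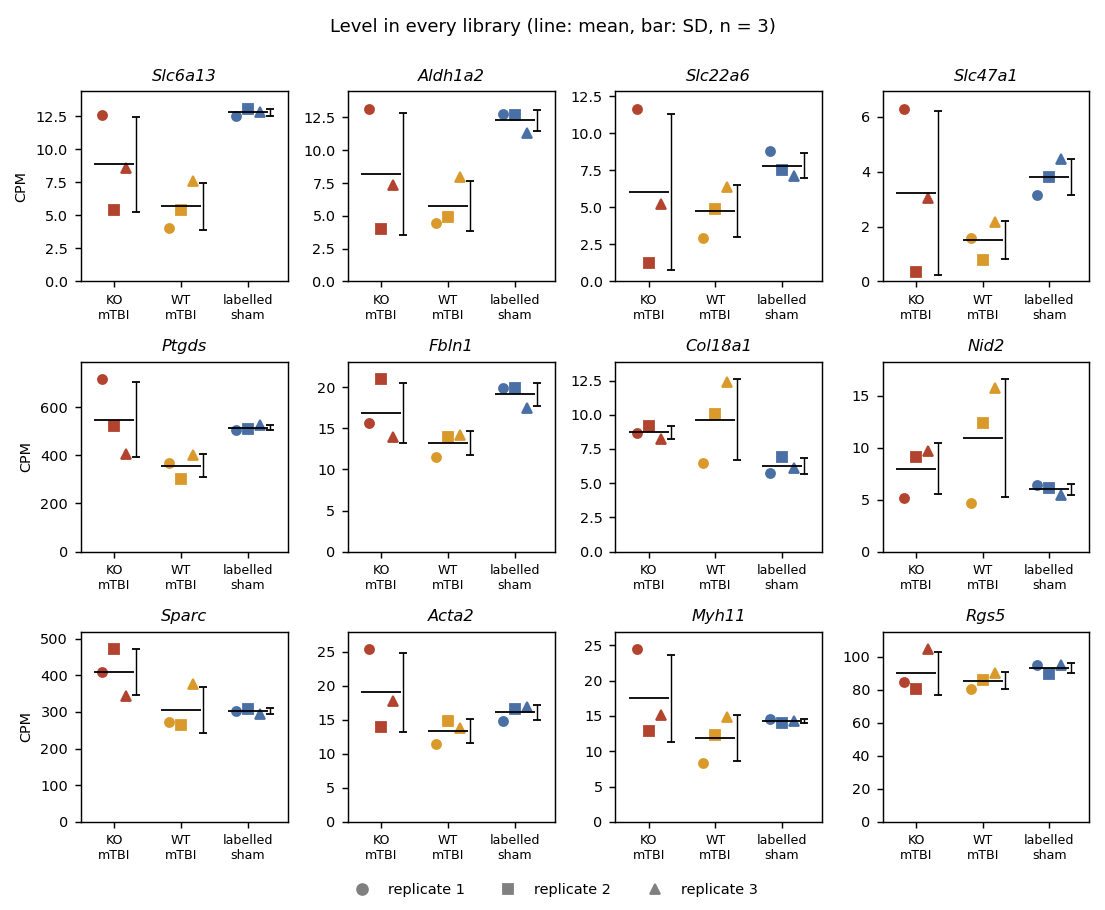
CPM of 12 genes in every library. Each point is 1 library, its shape gives the replicate number, lines are group means and bars the SD (n = 3 each), and every axis starts at 0. The 4 genes of the top row show the same spread among knockout mTBI libraries, with replicate 1 highest and replicate 2 lowest, and wild-type mTBI below the libraries labelled sham. Col18a1 and Nid2 are highest in wild-type mTBI replicates 2 and 3, and the Rgs5 groups overlap.

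Of the 7 pericyte genes, 0 passed the test in each comparison by edgeR, DESeq2 and limma voom, and the unadjusted p was under 0.05 for 1 gene, Abcc9, between knockout and wild-type mTBI. Vtn (ENSMUSG00000017344, chromosome 11, 78499091 to 78502324) had 72.5, 52.5 and 62.9 CPM in the knockout mTBI libraries, 56.3, 53.1 and 61.0 CPM in the wild-type mTBI libraries, and 62.9, 66.1 and 65.2 CPM in the libraries labelled sham. Rgs5 (ENSMUSG00000026678, chromosome 1, 169655501 to 169695813) had 84.4, 80.5 and 105 CPM in the knockout mTBI libraries, 80.2, 85.7 and 90.3 CPM in the wild-type mTBI libraries, and 94.9, 89.3 and 95.1 CPM in the libraries labelled sham. Wild-type mTBI lay just below the libraries labelled sham for Vtn, and the Rgs5 groups overlapped. The 95% interval of the Rgs5 difference ran from -0.34 to 0.09 (log2) between wild-type mTBI and the libraries labelled sham and from -0.14 to 0.29 between knockout and wild-type mTBI.

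Pdgfrb, the receptor through which endothelial PDGF-B recruits pericytes, averaged 33.7 ± 3.63 CPM in knockout mTBI, 28.7 ± 6.36 CPM in wild-type mTBI and 33.2 ± 1.67 CPM in the libraries labelled sham (SD, n = 3 each). Abcc9, a subunit of the ATP-sensitive potassium channel of pericytes, averaged 12.7 CPM in knockout mTBI, against 9.58 CPM in wild-type mTBI, a log2 difference of 0.41 (SE 0.17, adjusted p 0.732) that was 0.27 without wild-type mTBI replicate 1 and 0.66 without replicate 2. It averaged 9.95 CPM in the libraries labelled sham, and all knockout mTBI libraries were above all of those. Anpep, an aminopeptidase of the pericyte surface, averaged 5.04 CPM in knockout mTBI, 4.82 CPM in wild-type mTBI and 6.26 CPM in the libraries labelled sham, and knockout mTBI lay wholly below the last of these. Notch3, the Notch receptor of mural cells, averaged 19.2 CPM in knockout mTBI, 17.3 CPM in wild-type mTBI and 17.9 CPM in the libraries labelled sham. Higd1b, a small membrane protein gene that marks pericytes, had at most 2.79 CPM in any library. The groups of Notch3, Higd1b and Pdgfrb overlapped in each comparison.

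The 3 tested smooth muscle genes were highest in knockout mTBI replicate 1. Acta2 (ENSMUSG00000035783, chromosome 19, 34241090 to 34255590) had 25.4, 14.0 and 17.7 CPM in the knockout mTBI libraries, 11.4, 14.8 and 13.7 CPM in the wild-type mTBI libraries, and 14.8, 16.5 and 16.9 CPM in the libraries labelled sham. Myh11 (ENSMUSG00000018830, chromosome 16, 14194535 to 14291372), the myosin heavy chain of smooth muscle, had 24.5, 12.9 and 15.1 CPM in the knockout mTBI libraries, 8.38, 12.4 and 14.9 CPM in the wild-type mTBI libraries, and 14.5, 13.9 and 14.2 CPM in the libraries labelled sham. In both genes the other knockout libraries lay just below and just above the libraries labelled sham, and wild-type mTBI replicate 1 was the lowest of all 9. Between knockout and wild-type mTBI the log2 fold change was 0.52 for Acta2 (SE 0.19, 95% interval 0.10 to 0.93, adjusted p 0.732) and 0.56 for Myh11 (SE 0.24, adjusted p 0.732). For Acta2 the value lay between 0.25 and 0.70 when each library was left out in turn, and for Myh11 between 0.23 and 0.75, with both low values without knockout mTBI replicate 1. Cnn1 averaged 0.671 CPM in knockout mTBI, 0.488 CPM in wild-type mTBI and 0.541 CPM in the libraries labelled sham, with overlapping groups.

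Of the 9 interstitial collagen genes, 8 had negative log2 fold changes between wild-type mTBI and the libraries labelled sham and 8 between knockout mTBI and the libraries labelled sham, with medians of -0.12 and -0.17. These 2 comparisons share the libraries labelled sham. Col6a1 (ENSMUSG00000001119, chromosome 10, 76708792 to 76726168) had 79.2, 57.7 and 63.8 CPM in the knockout mTBI libraries, 54.8, 71.6 and 68.3 CPM in the wild-type mTBI libraries, and 74.8, 74.1 and 72.7 CPM in the libraries labelled sham. Col5a1 (ENSMUSG00000026837, chromosome 2, 27886425 to 28039514), a chain of the fibril-nucleating collagen V, had 32.9, 20.0 and 24.5 CPM in the knockout mTBI libraries, 18.8, 28.4 and 36.6 CPM in the wild-type mTBI libraries, and 29.9, 26.4 and 28.4 CPM in the libraries labelled sham. Replicate 1 was the highest knockout library and the lowest wild-type mTBI library for both genes. The groups of Col5a1 overlapped, and its differences had 95% intervals of -0.50 to 0.47 (log2) for wild-type mTBI against the libraries labelled sham and -0.60 to 0.37 for knockout against wild-type mTBI.

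The genes of collagen I, the main fibrillar collagen of scars, did not pass the test in either chain. Col1a1 averaged 14.4 ± 3.99 CPM in knockout mTBI, 17.9 ± 9.42 CPM in wild-type mTBI and 18.8 ± 1.62 CPM in the libraries labelled sham. Col1a2 averaged 22.1 CPM in knockout mTBI, 21.9 CPM in wild-type mTBI and 25.4 CPM in the libraries labelled sham. Within wild-type mTBI, Col1a1 had 28.8 CPM in replicate 3 and 12.5 CPM in each of the others. Col3a1, the chain of collagen III, averaged 10.4 CPM in knockout mTBI, 9.47 CPM in wild-type mTBI and 12.8 CPM in the libraries labelled sham, with a log2 difference of -0.44 (SE 0.19, adjusted p 0.357) for wild-type mTBI against the libraries labelled sham that was -0.25 without wild-type mTBI replicate 2 and -0.68 without replicate 3. Col5a2, Col6a2 and Col12a1 had log2 fold changes between -0.35 and 0.18 in all comparisons. Col6a3, the large chain of collagen VI, went against the other 8: it had 8.34, 8.36 and 11.3 CPM in the knockout mTBI libraries, 2.62, 13.1 and 16.3 CPM in the wild-type mTBI libraries, and 7.99, 6.91 and 7.48 CPM in the libraries labelled sham. Its 2 highest libraries and its lowest were all wild-type mTBI. Without wild-type mTBI replicate 1 the log2 fold change between wild-type mTBI and the libraries labelled sham was 0.98 with an adjusted p of 0.0326, against 0.52 (SE 0.46, adjusted p 0.640) with it. It was 0.34 (adjusted p 0.776) without replicate 2 of that group and 0.08 (adjusted p 0.954) without replicate 3.

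Among the basement membrane genes, Col18a1 and Nid2 had the highest log2 fold changes of the set between wild-type mTBI and the libraries labelled sham. Col18a1 (ENSMUSG00000001435, chromosome 10, 77052178 to 77166548) encodes collagen XVIII, the source of endostatin, and had 8.67, 9.20 and 8.27 CPM in the knockout mTBI libraries, 6.46, 10.1 and 12.4 CPM in the wild-type mTBI libraries, and 5.73, 6.91 and 6.10 CPM in the libraries labelled sham. All knockout mTBI libraries and wild-type mTBI replicates 2 and 3 were above the libraries labelled sham, while wild-type mTBI replicate 1 was among them. The log2 fold change was 0.63 (SE 0.20, adjusted p 0.227) for wild-type mTBI against the libraries labelled sham and 0.48 (SE 0.20, adjusted p 0.632) for knockout mTBI against them. Nid2 (ENSMUSG00000021806, chromosome 14, 19751265 to 19811787), which encodes a nidogen that links laminin to collagen IV, had 5.20, 9.15 and 9.65 CPM in the knockout mTBI libraries, 4.69, 12.4 and 15.8 CPM in the wild-type mTBI libraries, and 6.38, 6.17 and 5.42 CPM in the libraries labelled sham. The first replicate of each injured group was below the libraries labelled sham and the other 4 injured libraries were above them. Its log2 fold change was 0.87 (SE 0.36, adjusted p 0.335) for wild-type mTBI against the libraries labelled sham. Without wild-type mTBI replicate 1 it was 1.23 with an adjusted p of 0.0476, and for Col18a1 it was 0.85 with an adjusted p of 0.0306. Without wild-type mTBI replicate 3 it was 0.51 (adjusted p 0.506) for Nid2 and 0.40 (adjusted p 0.348) for Col18a1. In Nid2, 8.45% of the exon bases overlap another gene. The choroid plexus markers were high in the 4 libraries where Nid2 was high, but also in wild-type mTBI replicate 1, and their part in these levels was not tested.

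Sparc (ENSMUSG00000018593, chromosome 11, 55394500 to 55423183) had 409, 471 and 345 CPM in the knockout mTBI libraries, 272, 264 and 377 CPM in the wild-type mTBI libraries, and 303, 309 and 293 CPM in the libraries labelled sham. All knockout mTBI libraries were above the libraries labelled sham, and wild-type mTBI replicate 3 lay within the knockout range. For Sparc the log2 fold change was 0.42 (SE 0.14, 95% interval 0.12 to 0.73, adjusted p 0.732) for knockout against wild-type mTBI and 0.44 (SE 0.14, adjusted p 0.407) for knockout mTBI against the libraries labelled sham. The summed level of 10 endothelial markers, none at 0, was 384, 414 and 365 CPM in the knockout mTBI libraries, 307, 321 and 404 CPM in the wild-type mTBI libraries, and 321, 342 and 339 CPM in the libraries labelled sham. The 4 libraries highest in Sparc were the 4 highest in this sum, and the part of endothelial cells in the Sparc level was not tested. Between knockout mTBI and the libraries labelled sham, 5 genes lay wholly above (Sparc, Col18a1, Lamb1, Abcc9 and Col6a3) and 4 wholly below (Dcn, Anpep, Col3a1 and Col12a1). The shares of all genes that did so were 8.75% and 8.4%.

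Lama2 (ENSMUSG00000019899, chromosome 10, 26980036 to 27619758), the alpha chain of the laminin of mural cells and fibroblasts, had 19.7, 21.7 and 19.9 CPM in the knockout mTBI libraries, 14.1, 18.3 and 20.4 CPM in the wild-type mTBI libraries, and 21.5, 25.4 and 23.0 CPM in the libraries labelled sham. Wild-type mTBI lay wholly below the libraries labelled sham, with a log2 fold change of -0.41 (SE 0.13, adjusted p 0.227), which was -0.27 without wild-type mTBI replicate 1. The beta and gamma chains that pair with it, Lamb1 and Lamc1, had log2 fold changes of 0.12 (SE 0.09) and -0.08 (SE 0.17) in that comparison. The collagen IV genes, Col4a1 and Col4a2, had log2 fold changes between -0.03 and 0.11 in the 3 comparisons. Col4a2 (ENSMUSG00000031503, chromosome 8, 11312805 to 11449287) had 105, 118 and 74.2 CPM in the knockout mTBI libraries, 95.3, 98.2 and 98.1 CPM in the wild-type mTBI libraries, and 95.4, 97.4 and 95.8 CPM in the libraries labelled sham. Col4a1 averaged 77.5 ± 13.3 CPM in knockout mTBI, 71.8 ± 9.71 CPM in wild-type mTBI and 73.1 ± 1.18 CPM in the libraries labelled sham. The 95% intervals of the wild-type mTBI difference from the libraries labelled sham were -0.28 to 0.31 (log2) for Col4a2 and -0.30 to 0.25 for Col4a1. Nid1, the other nidogen, averaged 14.0 CPM in knockout mTBI, 12.0 CPM in wild-type mTBI and 14.5 CPM in the libraries labelled sham, and wild-type mTBI replicate 1 was its lowest library at 6.69 CPM.

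**Figure D3:**
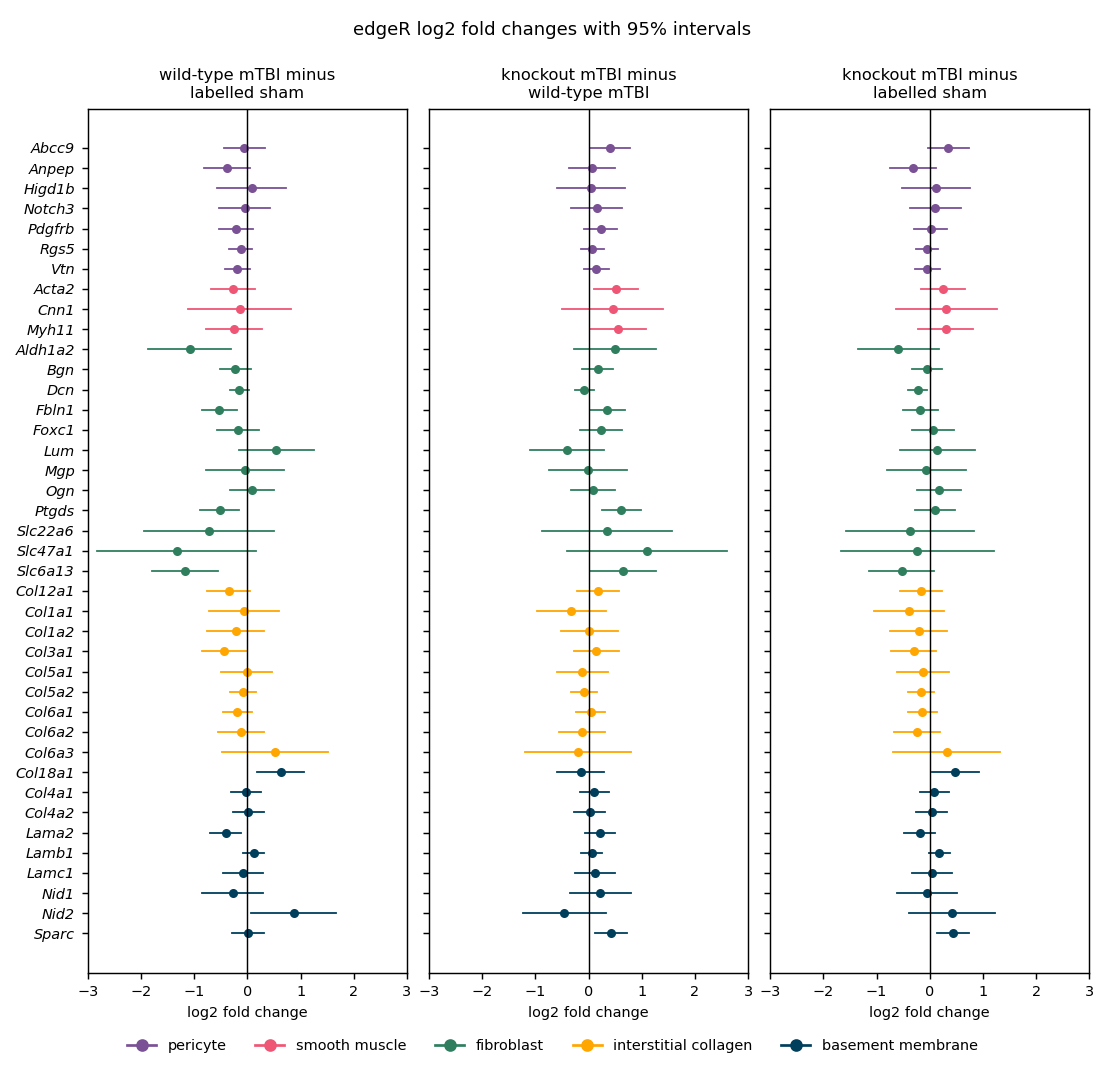
Log2 fold change of each of the 40 tested genes with its 95% interval in the 3 comparisons, coloured by role group. No gene passed the test. The lowest estimates are those of fibroblast genes between wild-type mTBI and the libraries labelled sham, and the widest interval is that of Slc47a1.

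The genes of the set varied more between replicates than genes in general in the injured groups and less in the libraries labelled sham. The median SD of log2 CPM over the 40 genes was 0.254 in knockout mTBI, 0.335 in wild-type mTBI and 0.0742 in the libraries labelled sham. Over all tested genes it was 0.164 in knockout mTBI, 0.221 in wild-type mTBI and 0.0883 in the libraries labelled sham. Wild-type mTBI replicate 1 was the lowest of the 9 libraries for 19 of the 40 genes, against 24.6% of all genes, and knockout mTBI replicate 1 was the highest for 16 of the 40, against 11.8% of all genes. Wild-type mTBI replicate 1 was the highest for none of the 40, although it was the highest for 27.1% of all genes. The median exon length was 5841 bases over the set, 3640 bases over all tested genes and 4378 bases over the protein-coding ones among them. In wild-type mTBI replicate 1 the level relative to the other libraries had a rank correlation with exon length of -0.29 across all tested genes and -0.263 across the 40. In knockout mTBI replicate 1 it was 0.00811 across all genes and -0.525 across the 40. Genes are not independent replicates, and the part of gene length in these levels was not tested.

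By role group, the fibroblast genes separated the knockout mTBI libraries most. Relative to the mean of the libraries labelled sham, the median log2 ratio of the 12 fibroblast genes was 0.42, -0.64 and -0.30 in the knockout mTBI libraries and -0.43, -0.43 and -0.24 in the wild-type mTBI libraries. Their summed level, which is mostly Ptgds, was 916, 645 and 551 CPM in the knockout mTBI libraries, 502, 441 and 561 CPM in the wild-type mTBI libraries, and 688, 687 and 696 CPM in the libraries labelled sham. The 3 smooth muscle genes had medians of 0.66, -0.14 and 0.14 in knockout mTBI and -0.49, -0.20 and 0.07 in wild-type mTBI. The median of the 7 pericyte genes stayed within -0.37 and 0.16 in all libraries, while single genes went beyond this range. The basement membrane genes differed from the fibroblast genes in knockout mTBI replicate 2, where their median was 0.31.

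**Figure D4:**
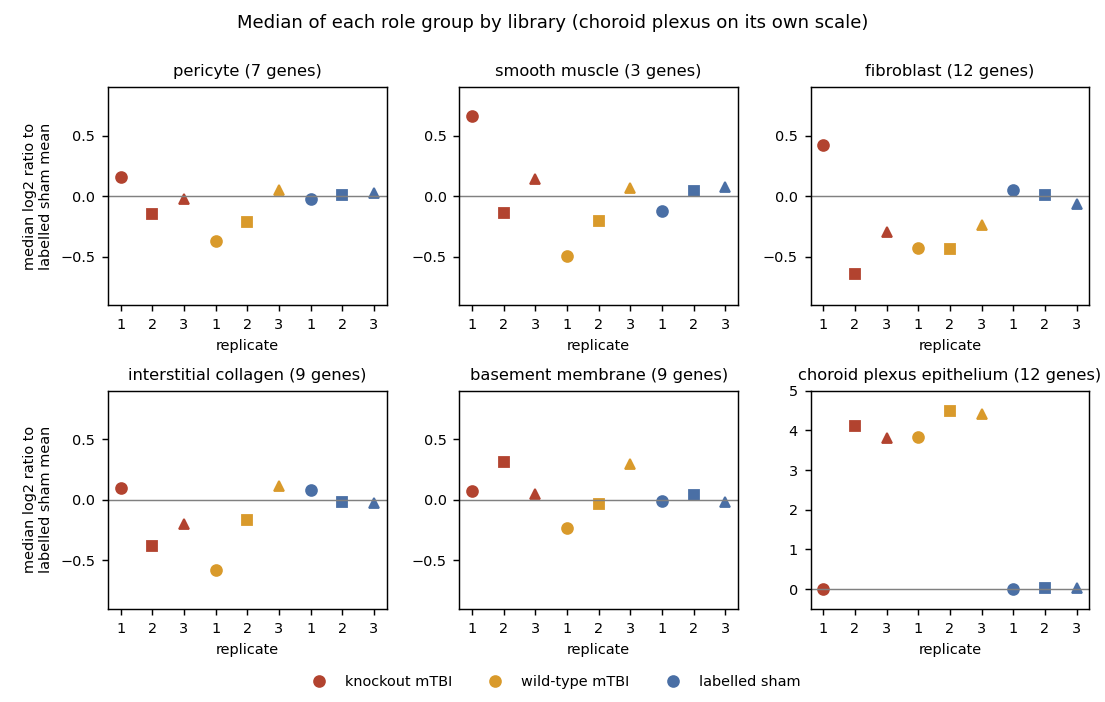
Median log2 ratio of each role group to the mean of the 3 libraries labelled sham, per library, with the 12 choroid plexus epithelial markers on a scale of their own in the last panel. Colours give the groups, and numbers under the points give the replicate. The pericyte, fibroblast and smooth muscle panels show knockout mTBI replicate 1 above the other injured libraries, and in the choroid plexus panel the same library lies at 0 with the libraries labelled sham.

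Genes that act on or beside this matrix were compared in 7 further lists: 20 other mural and fibroblast genes, 16 genes of collagen processing, 15 other basement membrane genes and integrins, 17 matrix proteases and inhibitors, 17 genes of TGF-beta and PDGF signalling, 10 genes of scar matrix and 11 genes of neural matrix. In each list 0 genes passed edgeR's test in either direction in each comparison. At an unadjusted p under 0.05, the highest numbers were 4 of 17 signalling genes between wild-type mTBI and the libraries labelled sham, 5 of 11 neural matrix genes between knockout and wild-type mTBI, and 4 of 16 collagen processing genes between knockout mTBI and the libraries labelled sham. These are the highest of 7 lists, and 13.2%, 6.6% and 7.2% of all tested genes reached that level in the same comparisons. The list medians lay between -0.14 and 0.16 (log2).

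The gene nearest to passing in wild-type mTBI was Slc13a4, a sulphate transporter of meningeal fibroblasts that is also found in the choroid plexus. It had 19.7, 28.5 and 24.1 CPM in the knockout mTBI libraries, 20.3, 27.1 and 30.9 CPM in the wild-type mTBI libraries, and 15.2, 14.2 and 15.7 CPM in the libraries labelled sham. Both injured groups lay above the libraries labelled sham, opposite to Slc6a13, with log2 differences of 0.68 (SE 0.16, adjusted p 0.202) for knockout mTBI and 0.80 (SE 0.16, adjusted p 0.0610) for wild-type mTBI. In wild-type mTBI it was called without wild-type mTBI replicate 1 and without knockout mTBI replicate 1, and by DESeq2 and limma voom. Pcolce, an enhancer of collagen propeptide cleavage, had 8.62, 15.3 and 11.6 CPM in the knockout mTBI libraries, 12.3, 16.4 and 18.6 CPM in the wild-type mTBI libraries, and 9.06, 7.68 and 8.22 CPM in the libraries labelled sham. Its wild-type mTBI difference from the libraries labelled sham was 0.92 (SE 0.21, adjusted p 0.0815), and it too was called without either of those 2 libraries. Knockout mTBI replicate 1 was at the level of the libraries labelled sham for Pcolce and near it for the sum of the choroid plexus markers, whose part was not tested.

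Postn, which encodes periostin, a matrix protein of scars, had 7.37, 9.33 and 6.75 CPM in the knockout mTBI libraries, 5.00, 6.04 and 6.50 CPM in the wild-type mTBI libraries, and 3.71, 4.46 and 3.17 CPM in the libraries labelled sham. The 3 groups did not overlap. The log2 difference was 1.05 (SE 0.18, adjusted p 0.10) for knockout mTBI against the libraries labelled sham, 0.63 (SE 0.18, adjusted p 0.181) for wild-type mTBI against them, and 0.42 (SE 0.18, adjusted p 0.732) for knockout against wild-type mTBI, which was 0.27 without knockout mTBI replicate 2. The first of the 3 was called in 6 of 21 alternatives, among them the fits without wild-type mTBI replicate 1 and without knockout mTBI replicate 1. Spp1, which encodes osteopontin, had the opposite direction in wild-type mTBI, with a log2 difference of -1.07 (SE 0.35, adjusted p 0.232) from the libraries labelled sham and all 3 libraries below them.

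Among regulators, the membrane-bound protease gene Mmp15 had a log2 difference of 0.49 (SE 0.10, adjusted p 0.0634) and Ltbp3, which encodes a binding protein of latent TGF-beta, of 0.38 (SE 0.09, adjusted p 0.0868) between wild-type mTBI and the libraries labelled sham. For both, all wild-type mTBI libraries were above those labelled sham, and both were called without wild-type mTBI replicate 1. Lama5, the laminin alpha chain of vascular basement membranes, had a value of 0.65 (SE 0.27, adjusted p 0.328) there, and it was called without that library too (0.96), whereas it was 0.44 and not called without wild-type mTBI replicate 2. In the neural matrix list, Hapln4, a link protein of perineuronal nets, had a log2 difference of -0.36 (SE 0.08, adjusted p 0.0793) for wild-type mTBI against the libraries labelled sham and 0.28 (SE 0.08, adjusted p 0.732) for knockout against wild-type mTBI. Hapln2, the link protein of nodes of Ranvier, had 0.64 (SE 0.19, adjusted p 0.732) for knockout against wild-type mTBI and 0.64 (SE 0.19, adjusted p 0.364) for knockout mTBI against the libraries labelled sham, with knockout mTBI replicate 2 the highest at 44.4 CPM. Without that library the Hapln2 values were 0.34 against wild-type mTBI and 0.33 against the libraries labelled sham. Timp1, the inhibitor of matrix metalloproteinases, had -0.96 (SE 0.39, adjusted p 0.613) for knockout mTBI against the libraries labelled sham, at no more than 2.09 CPM in any library. The remaining genes taken from these lists for their small p in at least 1 comparison had adjusted p-values of 0.251 or more in every comparison.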

How the data were processed

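The deposited values were raw counts of reads per Ensembl gene in 9 libraries, sequenced as paired reads of 150 bp per the labels' protocols. Per the file headers, the authors counted reads over exons of Ensembl release 98 on GRCm38 with featureCounts 2.0.6, without a setting for read pairs or strand. Both mates of a pair were therefore counted singly, and a gene cannot be told from one that overlaps it on the other strand. Per the submitters' processing notes, FastQC, Trim Galore, HISAT2, SAMtools and MultiQC were used with genome mm10, without versions. All IDs name a gene, and symbols, positions and exon lengths came from GENCODE M21 (Ensembl 96), which held 55240 of the 55421 IDs.

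The counts were tested in R 4.3.3 with edgeR 4.0.16 (filterByExpr, TMM scaling, quasi-likelihood F test, two-sided) in 1 fit of all 9 libraries with 6 residual and 5.12 prior degrees of freedom. Adjustment was by the Benjamini-Hochberg method across 20032 genes, with calls at an adjusted p under 0.05. CPM and RPKM were computed from the same counts and scaled totals. The series lists 3 mice per group, and the labels say nothing on separate preparation, so p-values measure the spread between these libraries. The test was also run on simulated counts with 200 changed genes. Its outcome is not given here, nor whether those counts had the unequal spread of the 3 groups, so nothing is drawn from it.

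The genes and lists were chosen with earlier results of these data known, so no test was run on a list. Values per library were given for genes called in any comparison, the 3 of smallest p per comparison and the 2 of highest RPKM per role group, and for Tmsb4x. From each related list came called genes, or else the 2 of smallest p per comparison. Each result was also computed with RLE or total-count scaling, with DESeq2 1.42.0, with limma 3.58.1 (voom, sample quality weights), without the low-count filter or with at least 1 CPM in 6 libraries, in a fit of the 6 libraries at issue, and with a block for replicate number. Further alternatives were counts divided by 2, the libraries labelled sham summed to 1, totals lacking mitochondrial, haemoglobin and choroid plexus genes, each library left out, and replicate 1 of both injured groups left out together.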

Additional observations from a re-analysis of the deposited data

How the results depend on the processing

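Over 21 alternatives the count of genes of the set called moved as follows, against 0 by edgeR as reported in each comparison. Between wild-type mTBI and the libraries labelled sham, 5 were called with no count filter (Aldh1a2, Slc6a13, Fbln1, Ptgds and Nid2), 3 with only the 6 libraries compared (Aldh1a2, Slc6a13 and Ptgds), 2 by DESeq2, 4 by limma voom, and 5 without replicate 1 of both injured groups (Slc6a13, Ptgds, Col6a3, Col18a1 and Nid2). With no filter, 676 genes of the whole table were called there, against 102. Leaving out each library in turn gave 0 to 3 calls in that comparison and 0 to 0 in the others. The 3 came without wild-type mTBI replicate 1 (Col6a3, Col18a1 and Nid2), and 1 without knockout mTBI replicate 1 (Slc6a13). With no filter, 1 gene was called between knockout and wild-type mTBI (Ptgds) and 1 between knockout mTBI and the libraries labelled sham (Sparc). In this last comparison 2 were called without replicate 1 of both injured groups: Dcn (-0.31, adjusted p 0.0226) and Nid2 (0.65, adjusted p 0.0455). The cause of these differences was not tested.

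Over the 21 alternatives, 12 of the 40 log2 fold changes took the other sign at least once between wild-type mTBI and the libraries labelled sham, 24 between knockout and wild-type mTBI, and 17 between knockout mTBI and the libraries labelled sham. Between knockout and wild-type mTBI, Aldh1a2 had 0.50, against -0.03 without knockout mTBI replicate 1. Without wild-type mTBI replicate 3, Col6a3 had 0.24 there, against -0.20, and Col18a1 had 0.08, against -0.15. Ptgds had 0.10 between knockout mTBI and the libraries labelled sham, against -0.15 without knockout mTBI replicate 1, and Sparc had 0.014 between wild-type mTBI and those libraries, against -0.18 without wild-type mTBI replicate 3. Of the genes chosen by their p, Itgb1 was the only one to turn in the comparison it was chosen in: between knockout and wild-type mTBI it was -0.10, and ran from -0.15 to 0.0070 when each library was left out, the last value without wild-type mTBI replicate 3. The medians over the 40 genes ran from -0.27 to -0.06 between wild-type mTBI and the libraries labelled sham, from -0.04 to 0.33 between knockout and wild-type mTBI, and from -0.14 to 0.02 between knockout mTBI and the libraries labelled sham. By limma voom, 20 of 40 values were positive between knockout and wild-type mTBI. With the libraries labelled sham summed to 1 sample, 0 genes of the set were called, and 1 gene of all those tested was called between wild-type mTBI and that sample. Same-numbered libraries of different groups did not deviate together (correlations of -0.0887 to 0.0733, 0 of 9 over 0.1), so the numbers were not taken as pairs. With the replicate block 0 genes of the set were called in each comparison, as without it.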
